A study of Mus musculus with 4 samples.

Results

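The antibodies of a CITE-seq panel were set against the RNA of their own antigens, barcode by barcode, in myeloid cells sorted from mouse ankle synovium. In CITE-seq, antibodies carry short DNA barcodes that are captured and counted as unique molecules (UMIs) in the same droplets as the cell's RNA. The panel listed 92 antibodies. The CD45.1 and CD45.2 antibodies, 2 in all, were left out, and so were 5 antibodies with at most 1 UMI in any library (CD45, SiglecH, P2X7R, CD40 and Podoplanin). The other 85 antibodies formed 85 pairs with 84 genes or gene sums, since CD90.1 and CD90.2 share Thy1. Of these antibodies, 79 were read at baseline. The other 6 (among them CD68, P2Ry12, TLR4, CD185_CXCR5 and CD90.1) had at most 50 UMIs there and are given apart. CD90.1 stood exactly at that limit with 50 UMIs, and among the antibodies read at baseline CD23 had the fewest UMIs in its best library, 324.

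The study followed serum-transfer arthritis, in which joint-directed autoantibodies of K/BxN mice are passed to recipients, here by the retro-orbital route. Libraries were made on day 0 (baseline, labelled as untreated), day 7 (peak), day 14 (plateau) and day 56 (resolution), 1 library for each. All mice were bone marrow chimeras in which CD45.1 B6 marrow had been given to CD45.2 B6 hosts, and the ankles were shielded during irradiation, a step that leaves host cells in the joint. By the library titles, the gate took live cells with CD45 and CD11b and without Ly6C, CD64, CD177, Ly6G, SiglecF or MHC class II. How many mice were pooled for a library the labels do not say. An unexplained tag, "Clo-lip", stands in the titles of the later 3 libraries and cannot be told apart from the stage.

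An antibody reads protein at the cell surface, and transcript counts read the RNA present at the moment of lysis. Protein and RNA of one gene can differ in a cell because proteins may last longer than their transcripts, be stored inside the cell, be shed, or be bound from outside. Monocytes and macrophages carry many of the antigens read here: receptors for complement and chemokines, integrins that hold leukocytes to vessel walls and matrix, scavenger receptors, and the class II molecules that present peptides to T cells.

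What the sequencer read for an antibody was its 15-base barcode, a designed sequence with no place in the genome. Barcodes are shown for the 5 antibodies that followed their own RNA most closely and for CD36, which ran against its own.

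I-A-I-E: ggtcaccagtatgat
Ly6C: aagtcgtgaggcatg
CD88_C5AR: gcagtcctacattga
FrB: ctcagatgcccttta
CD11a: agagtctccctttag
CD36: tttgccgctacgaca

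Any 2 barcodes of the 85 paired antibodies differed at 4 or more of the 15 positions. The barcode of CD36 differed from that of Ly6C at 13 positions.

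After barcodes with under 300 genes or over 10% mitochondrial UMIs were removed, 1071, 5941, 2828 and 4611 barcodes were left at baseline, peak, plateau and resolution. A median barcode of these libraries held 7752, 8250, 6782.5 and 4912 gene UMIs, and 942, 772, 590 and 356 UMIs of the 85 antibodies. Libraries shared 1 to 10 barcode sequences. Csf1r, a gene of monocytes and macrophages, had a UMI in 862, 4666, 2135 and 3360 of the kept barcodes. The RNA of 5 neutrophil markers summed to 25720 CPM (UMIs scaled to the same total of gene UMIs in every library) at baseline, 1280 at peak, 2945 at plateau and 1111 at resolution, although Ly6G-positive cells had been gated out. Mmp9, which osteoclasts also express, made up 2766 CPM of the sum at plateau, and the other 4 markers were all lower at plateau than at peak (S100a8 at 74.9 against 298 CPM). The 1% of barcodes with the most antibody UMIs held 15.0% of them at baseline and between 6.63% and 7.74% in the other libraries. Each antibody was expressed as a share of its barcode's antibody UMIs and each RNA as a share of its barcode's gene UMIs, and agreement was measured as Spearman's rho over the kept barcodes of 1 library. Barcodes of a library share its mice, its sort and its depth, so rho is a description with no p-value.

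Agreement between antibody and RNA was modest for most antigens. As a mean over the libraries, rho reached 0.2 for 18 of the 79 antibodies read at baseline (22.8%), against 1.04% of 6557 combinations of the same antibodies with the RNA of other panel antigens. In single libraries the threshold was reached by 22 of 76 pairs at baseline (28.9%, against 3.56% of other combinations), 15 of 79 at peak (19.0%, against 0.93%), 18 of 75 at plateau (24.0%, against 2.23%) and 16 of 77 at resolution (20.8%, against 1.42%). The median pair had a mean rho of 0.112, and the median of the other combinations was 0.00731. In 28 pairs mean rho lay within 0.05 of 0. For 51 pairs rho was above 0 in every library, and for 8 it was at least 0.2 in every library. Just above the threshold stood CD71 at 0.235 and CD90.2 at 0.204, and just below it CD106 at 0.179 and MERTK at 0.176. Leaving out 1 library took 4 pairs below the threshold: Tim4 (0.191) and CD90.2 (0.194) without baseline, CD61 (0.190) and CD71 (0.169) without plateau, and CD90.2 (0.199) also without resolution. It took 4 others to the threshold or above: MERTK (0.202) without peak, and CD106 (0.216), CD86 (0.209) and F4_80 (0.210) without resolution.

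**Figure D1:**
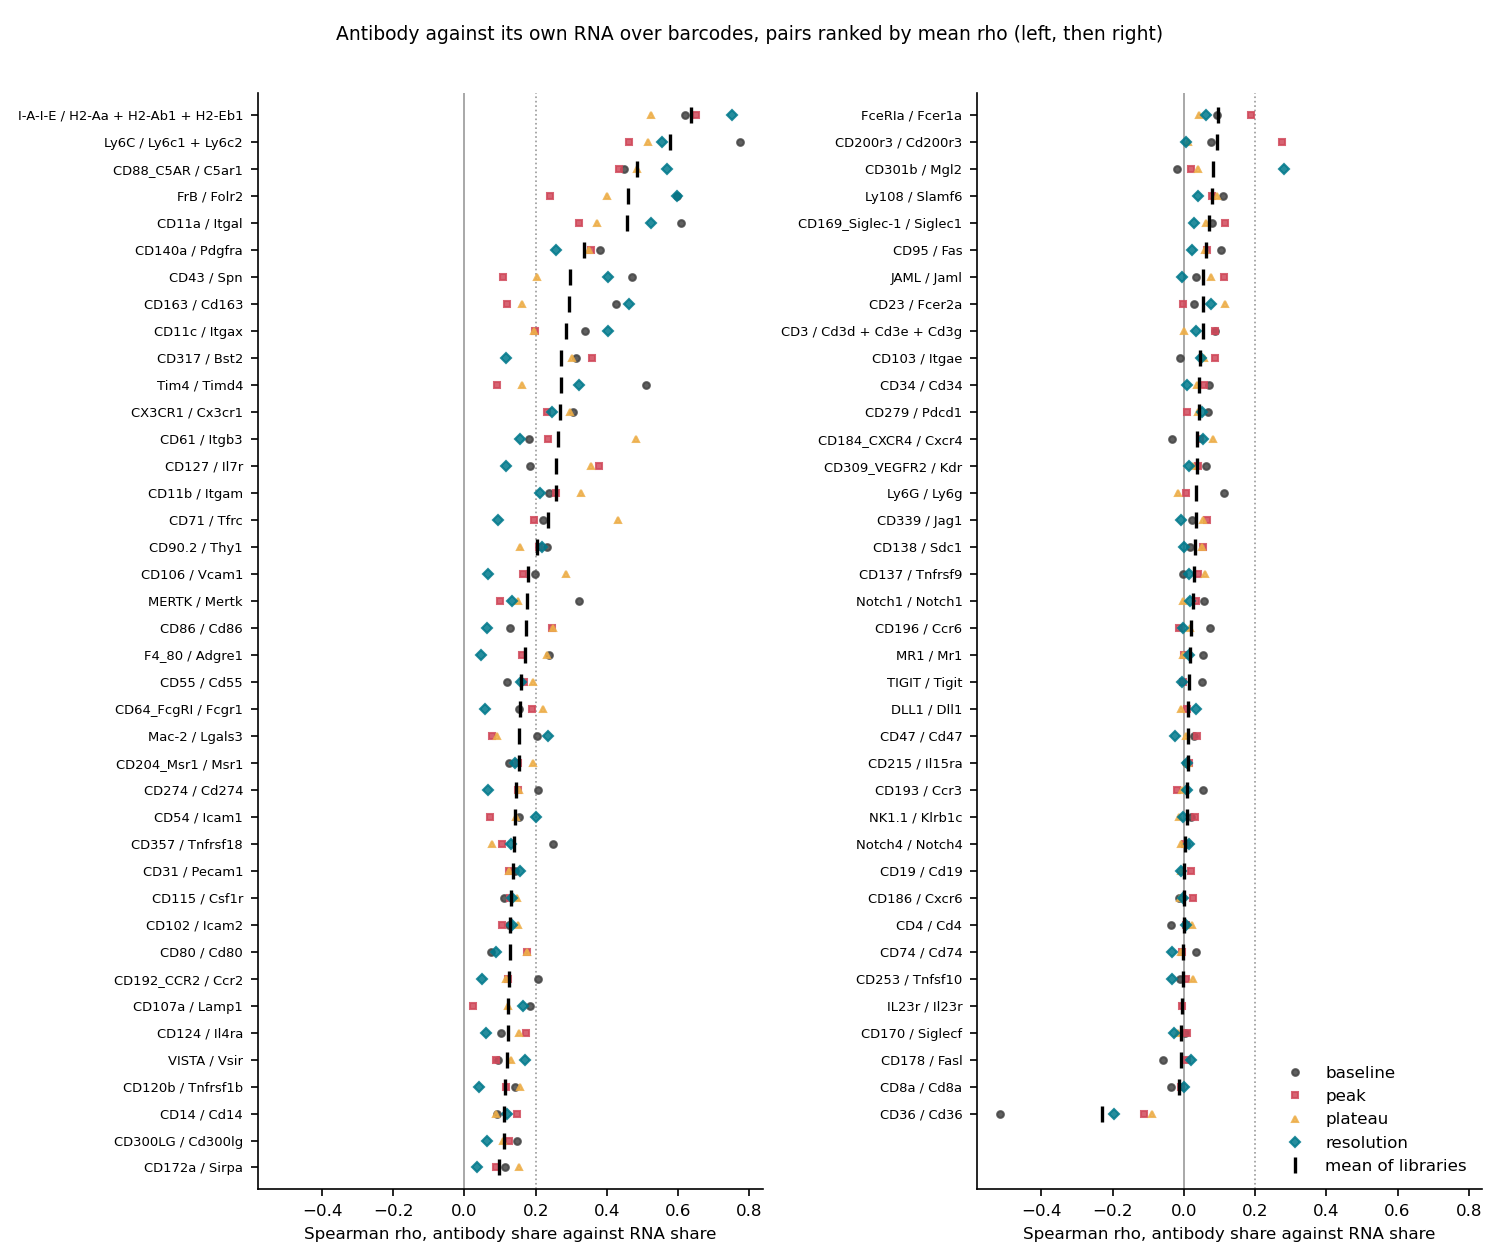
Spearman rho between each antibody and its own RNA (horizontal axis) for antibodies read at baseline, ranked by their mean; each point is 1 library. The ranking runs from I-A-I-E at 0.636 to CD36 at -0.229, and the dotted line marks 0.2.

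The own RNA was often, but not always, the RNA that an antibody followed best. It ranked first among the 84 panel genes for 25 of the 79 antibodies, and within the first 5 for 43. Among 7172 genes, each seen in at least 5% of barcodes in every library, the own gene came before all others for 15 antibodies, while 0.331% of all 566588 combinations of an antibody and such a gene reached 0.2. Read the other way, 29 genes had their own antibody as the best match, and 15 pairs were each other's best match. The order of the pairs was similar between libraries, with Spearman's rho of 0.687 for resolution and peak and up to 0.854 for plateau and peak, over the 73 to 77 pairs that 2 libraries shared. These orders come from the same antibodies and genes each time and carry no test.

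MHC class II and Ly6C, against which the cells had been gated, led the ranking. The I-A-I-E antibody binds the MHC class II molecules of the mouse and was paired with the summed RNA of H2-Aa, H2-Ab1 and H2-Eb1. Its rho was 0.619 at baseline, 0.651 at peak, 0.523 at plateau and 0.751 at resolution, which was the highest of all pairs in every library but baseline, where Ly6C was higher. The single genes gave means of 0.653, 0.620 and 0.621. Although the gate was set against MHC class II, the antibody was read in 74.5% to 95.1% of barcodes and the summed RNA in 43.4% to 62.0%. In the 10% of barcodes highest for the antibody it reached 16900 CPM at resolution, with a 95% Poisson interval of 16749 to 17052. The 50% of barcodes lowest for the antibody had 159 CPM, with an interval of 152 to 166. The ratio between these sets of barcodes was 102 at baseline, 88.4 at peak, 165 at plateau and 106 at resolution. Poisson intervals given here cover counting error only. The other RNAs that the antibody followed best were Cd74 (0.606), H2-DMb1 (0.444) and H2-DMa (0.377), all of the class II pathway.

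The Ly6C antibody, against a surface protein that is abundant on classical monocytes, followed the summed RNA of Ly6c1 and Ly6c2 with a rho of 0.773 at baseline, 0.461 at peak, 0.516 at plateau and 0.554 at resolution. Of the 2 genes, which are close copies that the counting may have split, Ly6c2 alone gave a mean of 0.559 and Ly6c1 alone 0.115. They neighbour each other on chromosome 15 (mm10 coordinates 75044018 to 75048920 for Ly6c1 and 75108161 to 75112066 for Ly6c2). The RNA in antibody-high barcodes was 10.2, 3.31, 38.3 and 48.0 times that of the lower 50% from baseline to resolution. Peak, with the smallest of these ratios, was also the library where the lower 50% had the most Ly6c RNA, 305 CPM against 19.4 to 112 CPM in the other libraries. After its own genes the antibody followed Hp (0.535), Plac8 (0.505) and Tmsb10 (0.490). Although the gate was set against Ly6C, the antibody was read in 59.3% to 99.7% of barcodes, with a median of 68 UMIs at baseline.

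The other antigens of the sort were less well followed. CD11b, the integrin chain on which the gate was positive, was read in nearly all barcodes and gave a rho of 0.236, 0.258, 0.327 and 0.211 from baseline to resolution. Its antibody-high barcodes had 1.57, 1.69, 2.62 and 1.62 times the Itgam RNA of the lower 50%. CD64, a high-affinity receptor for IgG encoded by Fcgr1, gave 0.152, 0.189, 0.220 and 0.0588. Ly6G of neutrophils and CD170 (Siglecf, of eosinophils and some macrophages) had mean rho of 0.0344 and -0.00779, but their RNA was scarce. Ly6g RNA had 39 UMIs at baseline, where rho was 0.1125, and 4, 1 and 0 UMIs in the later libraries. Siglecf RNA had between 5 and 16 UMIs a library. CD177 had no antibody in the panel.

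CD88_C5AR, the antibody to the receptor for the complement fragment C5a, had the third highest mean rho, 0.484, and the smallest spread between libraries of the first 5 pairs: 0.447, 0.433, 0.485 and 0.569. C5ar1 ranked first of all 7172 genes for it. C5ar1 RNA in antibody-high barcodes was 392, 412, 684 and 483 CPM from baseline to resolution, against 34.3, 104, 82.3 and 33.1 CPM in the lower 50%. After C5ar1, its best RNA matches were C3ar1 (0.422), the receptor for C3a, then Dab2 (0.396) and Cd36 (0.391). CX3CR1, the fractalkine receptor that marks nonclassical monocytes, gave 0.305, 0.233, 0.295 and 0.245. CD192_CCR2, the receptor that draws monocytes from marrow to inflamed tissue, had a mean of only 0.124, yet no other panel gene exceeded Ccr2 for it.

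FrB recognises folate receptor beta, the product of Folr2, which is a marker of resident synovial macrophages. Its rho was 0.597 at baseline, 0.239 at peak, 0.401 at plateau and 0.597 at resolution. Folr2 RNA was at 110, 11.5, 29.5 and 125 CPM in these libraries, so that rho was lowest where the RNA was scarcest. In antibody-high barcodes at baseline Folr2 RNA was 875 CPM (95% interval 814 to 939), and in the lower 50% it was 1.42 CPM (0.614 to 2.80, from 8 UMIs). Next to Folr2, the RNAs that FrB followed best were Fxyd2 (0.403), C1qc (0.398) and C1qa (0.388).

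CD163, the scavenger receptor for haemoglobin bound to haptoglobin, was also lowest at peak and next lowest at plateau, with 0.426, 0.120, 0.162 and 0.463. Its antibody-high barcodes held between 48.4 and 231 times the Cd163 RNA of the lower 50%. Tim4, which binds phosphatidylserine on dying cells, gave 0.510, 0.0914, 0.161 and 0.322, but it followed Folr2 RNA (0.328) more closely than its own Timd4 (0.271). The antibodies to MERTK, another receptor for dying cells, and to the lysosomal protein CD107a also had Folr2 as their best panel gene, at 0.282 and 0.295.

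**Figure D2:**
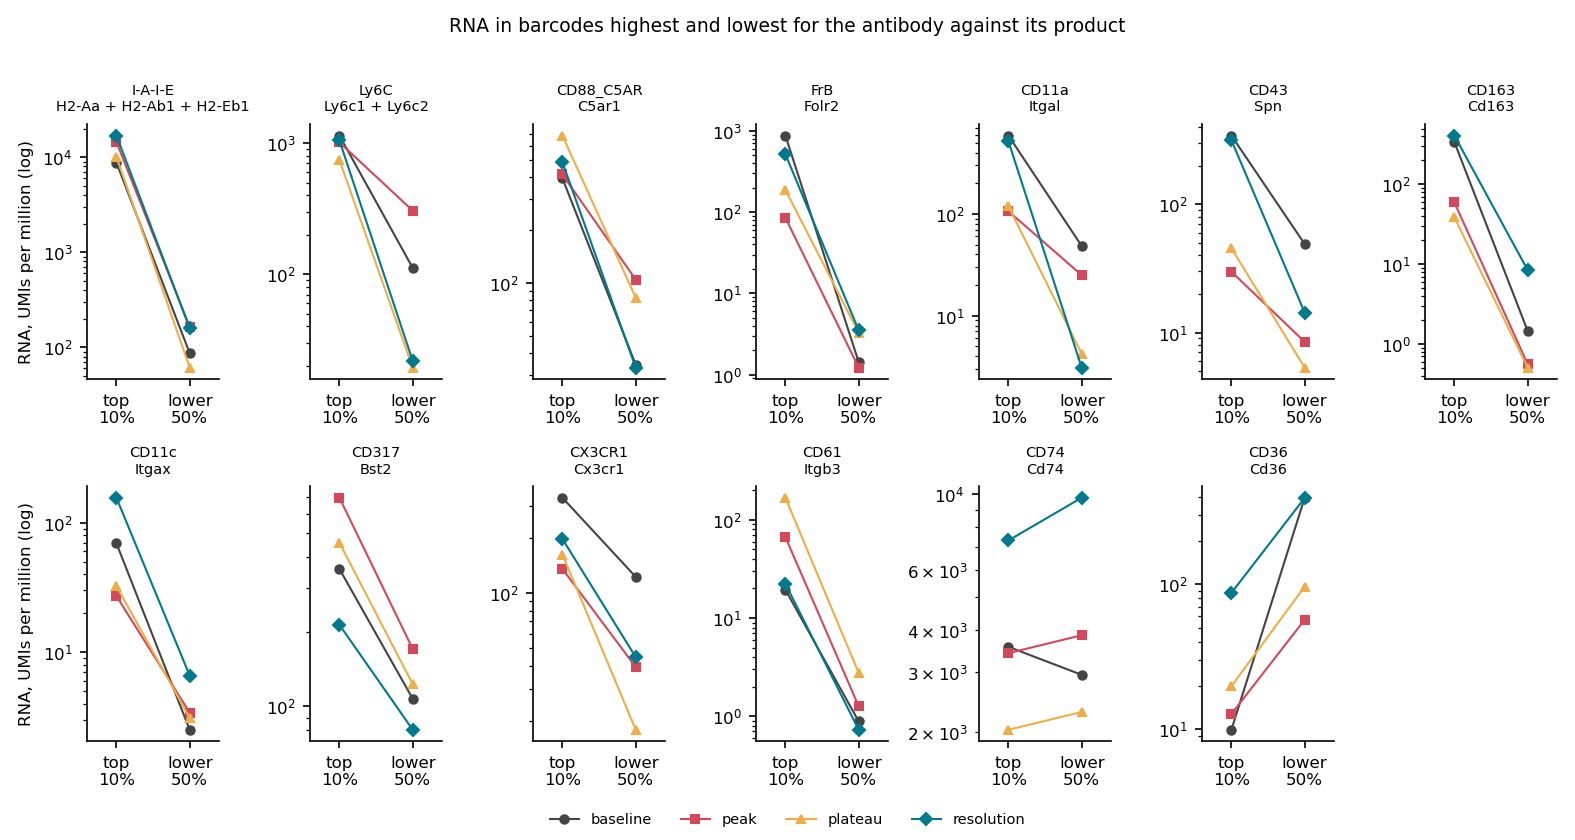
RNA of the antigen (CPM, log axis) in the 10% of barcodes highest for its antibody and in the 50% lowest, 1 line for each library. Lines fall to the right in every library for the leading detected pairs shown, stay nearly level for CD74 (1.21, 0.886, 0.886 and 0.749 times) and climb for CD36 (0.0250, 0.223, 0.205 and 0.221 times).

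Among adhesion molecules, 5 of 14 antibodies reached 0.2, with a median of 0.140. CD11a, the integrin chain that pairs with CD18 to bind ICAMs, gave 0.610, 0.323, 0.373 and 0.525. Its own gene Itgal ranked first among panel genes but only 22nd among all: Coro1a (0.589), Plac8 (0.585) and Napsa (0.565) stood higher than Itgal (0.458). CD43, the sialylated mucin of leukocytes encoded by Spn, followed Itgal (0.358) more closely than Spn (0.297), and Coro1a led again at 0.501. CD11c, an integrin chain of dendritic cells and macrophages, gave 0.340, 0.199, 0.196 and 0.405.

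CD61, the beta 3 integrin chain that osteoclasts use to attach to bone, gave 0.180 at baseline, 0.235 at peak, 0.483 at plateau and 0.156 at resolution. Its mean over the libraries fell below 0.2 without plateau. Itgb3 RNA was at 5.44, 11.7, 51.1 and 4.13 CPM from baseline to resolution. The summed RNA of 5 osteoclast markers (Acp5, Ctsk, Mmp9, Ocstamp and Atp6v0d2, none at 0 in any library) was at 74.1, 5088, 21298 and 857 CPM, and so was also highest at plateau. CD71, the transferrin receptor, had the same best library, with 0.219, 0.194, 0.432 and 0.0932. The part of the osteoclast markers in these values was not tested.

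CD317, the interferon-induced protein tetherin encoded by Bst2, gave 0.312, 0.358 and 0.302 in the first 3 libraries and 0.117 at resolution. CD127, the receptor chain for interleukin 7, gave 0.185, 0.379, 0.354 and 0.116. CD140a, a growth factor receptor of fibroblasts encoded by Pdgfra, had a mean of 0.335 although its RNA was in no more than 5.16% of barcodes. After Pdgfra its best RNAs were Col1a2 (0.295), Col1a1 (0.281) and Dcn (0.273), all genes of fibroblast matrix. Ptprc RNA, which encodes CD45, was in 53.9% of the antibody-high barcodes at resolution and in 81.0% of the lower ones.

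The lowest pair of all was CD36, the scavenger receptor that takes up oxidised lipids and fatty acids. It was the only one of the 41 well-detected pairs (antibody and RNA each in at least 10% of barcodes of some library) with a rho below 0 in every library: -0.517 at baseline, -0.113 at peak, -0.0897 at plateau and -0.196 at resolution. Its gene, on chromosome 5 (mm10 coordinates 17781690 to 17888959), ranked 84th of the 84 panel genes and 7167th of 7172. Barcodes highest for the CD36 antibody had 9.89 CPM of Cd36 RNA at baseline (95% interval 4.74 to 18.2), against 396 CPM (377 to 415) in the lower 50%. At peak the values were 12.7 against 57.0 CPM, at plateau 19.8 against 96.3 CPM, and at resolution 87.1 against 395 CPM. This split uses the same barcodes as rho and restates its direction, and the intervals cover counting error only.

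The CD36 antibody followed the RNA of Ly6c1 and Ly6c2 instead, with a rho of 0.741, 0.275, 0.403 and 0.463. Its antibody-high barcodes held 1207, 846, 617 and 961 CPM of Ly6c RNA, against 113, 344, 81.8 and 63.4 CPM in the lower 50%. It also ran with the Ly6C antibody, at a mean of 0.535 and 0.833 at baseline. The Ly6C antibody itself had a rho of -0.353 with Cd36 RNA. At baseline the antibodies to CD4 (0.531) and CD61 (0.496) also ran with Ly6c RNA. Cd4 RNA had 4 UMIs at baseline, and in the later libraries rho of CD4 with Ly6c RNA was between 0.052 and 0.078. Cd36 RNA was best matched by the antibodies to CD88_C5AR (0.391), CD86 (0.348) and CD80 (0.301), and CD36 ranked only 76th of 79 antibodies for it. In barcodes highest for CD88_C5AR, Cd36 RNA was 22.5, 11.4, 12.2 and 5.50 times that of the lower 50%. Neither which epitope the CD36 antibody reads nor whether its barcode stands under the right name was tested, so the values given for CD36 hold for the barcode listed under that name.

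**Figure D3:**
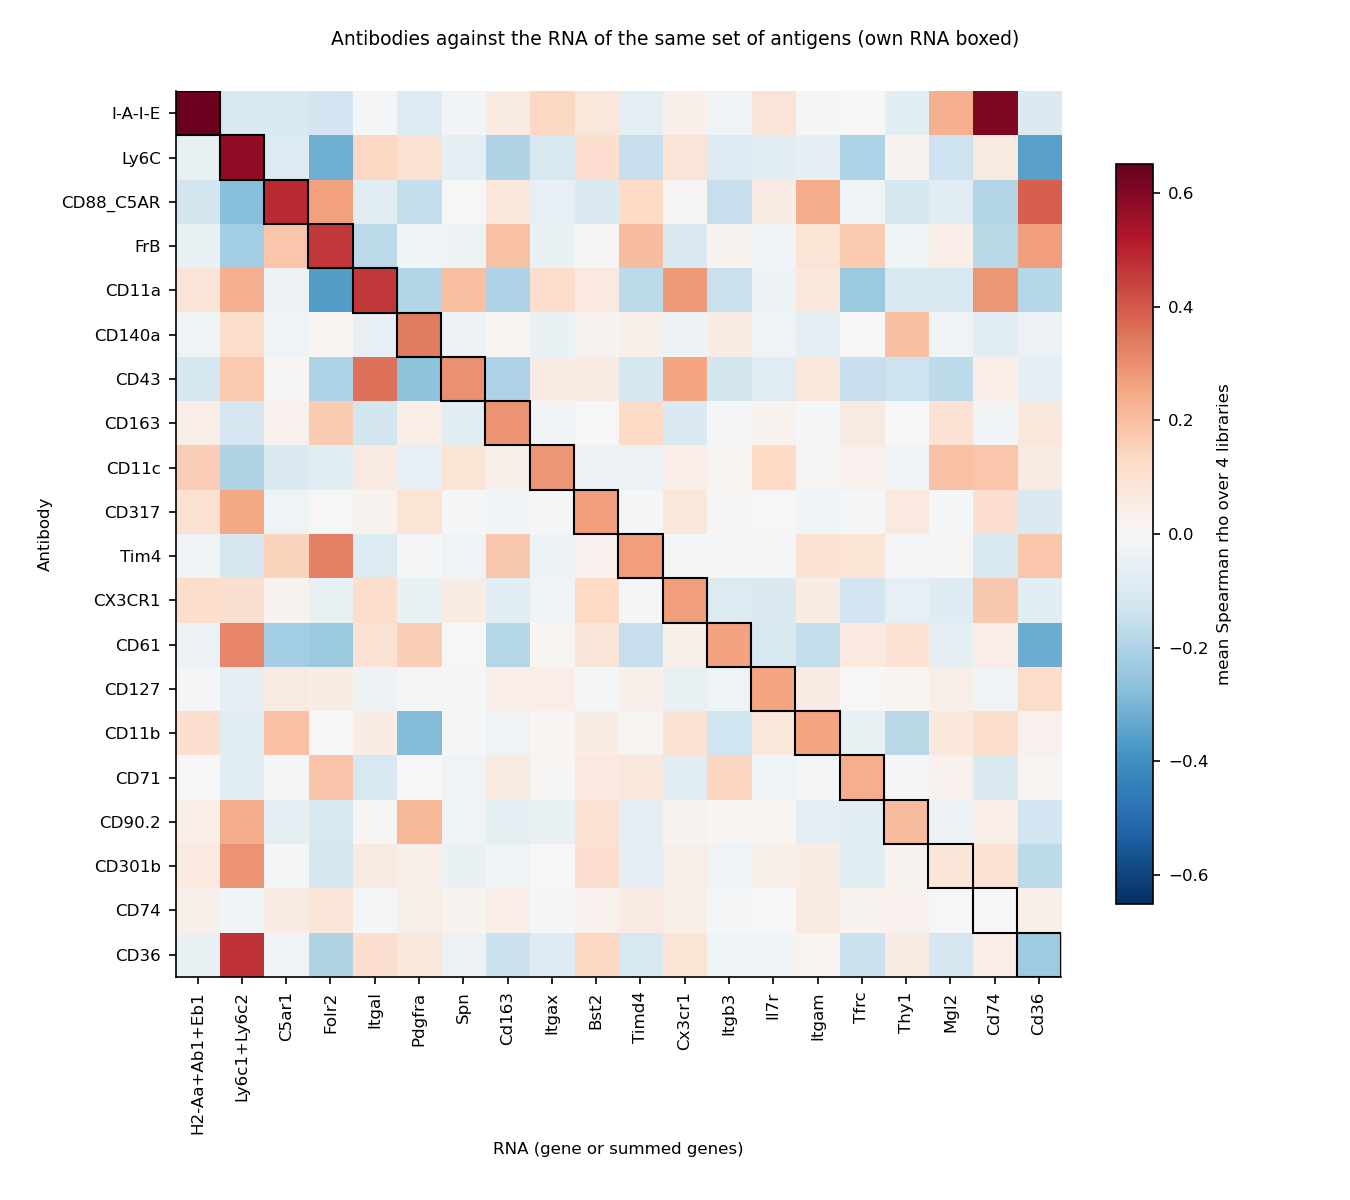
Mean Spearman rho over 4 libraries between antibodies (rows) and the RNA of the same antigens (columns), with each own pair boxed. The boxes are the darkest red of most upper rows, while the CD36 row has its red at Ly6c1 and Ly6c2 (0.470) and blue in its own box (-0.229).

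CD301b, a lectin of dendritic cells and macrophages encoded by Mgl2, was named after its values were seen. Its pair reached 0.2 in 1 library alone, as did others, MERTK, CD106 and CD200r3 among them. Its rho was -0.0196, 0.0213 and 0.0395 at baseline, peak and plateau and 0.282 at resolution. Mgl2 RNA was in 5.51%, 0.774%, 0.637% and 21.9% of barcodes from baseline to resolution. In antibody-high barcodes it was at 137, 8.69, 12.1 and 1205 CPM from baseline to resolution. In the barcodes lowest for the antibody it was at 43.9, 2.03, 0.645 and 145 CPM, and so lower in every library. At baseline these sets hardly differed in the percentage of barcodes with the RNA (6.48% and 6.34%). At plateau they held only 27 and 12 UMIs of it. At baseline the antibody ran with Ly6c RNA, at 0.515, as the CD36, CD4 and CD61 antibodies did.

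Some antigens with abundant RNA were hardly followed. CD74, the invariant chain that escorts class II molecules, had a rho between -0.0334 and 0.0353, although Cd74 RNA was at 2246 CPM or more in every library. Cd74 RNA ran with the I-A-I-E antibody instead, at 0.606. Its own antibody was at 2.99 to 5.17 per 10000 antibody UMIs. CD47, the signal against phagocytosis, had RNA in 84.4% to 92.6% of barcodes and a mean rho of 0.0119. This value was 0.208 with raw UMIs, where depth enters both measures. Notch1 (0.0264), CD138 (Sdc1, 0.0307) and CD184_CXCR4 (0.0363) complete the 6 lowest well-detected pairs.

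Several antibodies followed another antigen's RNA better than their own. CD86, a co-stimulatory ligand for T cells, followed C5ar1 (0.360) before Cd86 (0.172). CD80, its partner in co-stimulation, followed Cd36 (0.301) before Cd80 (0.128). CD102, an ICAM encoded by Icam2, followed Ccr2 (0.365) before Icam2 (0.129). CD61 followed Ly6c RNA (0.319) before Itgb3 (0.263) by the mean. The order was the reverse at peak (0.193 against 0.235) and plateau (0.167 against 0.483). Read the other way, the RNA of Cd86, Cd80, Icam2 and Itgb3 each had its own antibody as the best match of 79.

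By role, 4 of 14 antibodies to macrophage receptors reached 0.2 (median 0.153), 2 of 8 to chemokine and complement receptors (0.0800), 2 of 8 to growth factor and cytokine receptors (0.118) and 1 of 5 to molecules of antigen presentation (0.128). None of 10 antibodies to checkpoint and death ligands or receptors did (median 0.0524), nor any of 4 to Notch proteins (0.0195), the 2 to Fc receptors outside the sort (0.0751) or the antibody to CD14 (0.112), the co-receptor for bacterial lipopolysaccharide. Of 7 lymphoid antigens only CD90.2 did, and the median was 0.00878. These Fc receptors and most of the lymphoid antigens had RNA in under 1% of barcodes, where the many barcodes at 0 limit the rho that can be reached.

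Detection went with agreement. Of the 41 well-detected pairs, 15 reached 0.2, with a median of 0.144, against 3 of the other 38 (CD140a, Tim4 and CD90.2), with a median of 0.0352. Where an RNA is at 0 in nearly all barcodes, ties limit the rho that its pair can reach, whatever the agreement. Under that limit, none of the 19 pairs whose RNA was in under 1% of barcodes reached 0.2. Above that level agreement did not keep rising: 7 of 26 pairs reached 0.2 with RNA in 1% to 10% of barcodes, 5 of 13 between 10% and 30%, 3 of 9 between 30% and 50%, and 3 of 12 at 50% or more. Over the 79 pairs, mean rho had a Spearman correlation of 0.512 with RNA detection and 0.62 with the antibody's share of UMIs.

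**Figure D4:**
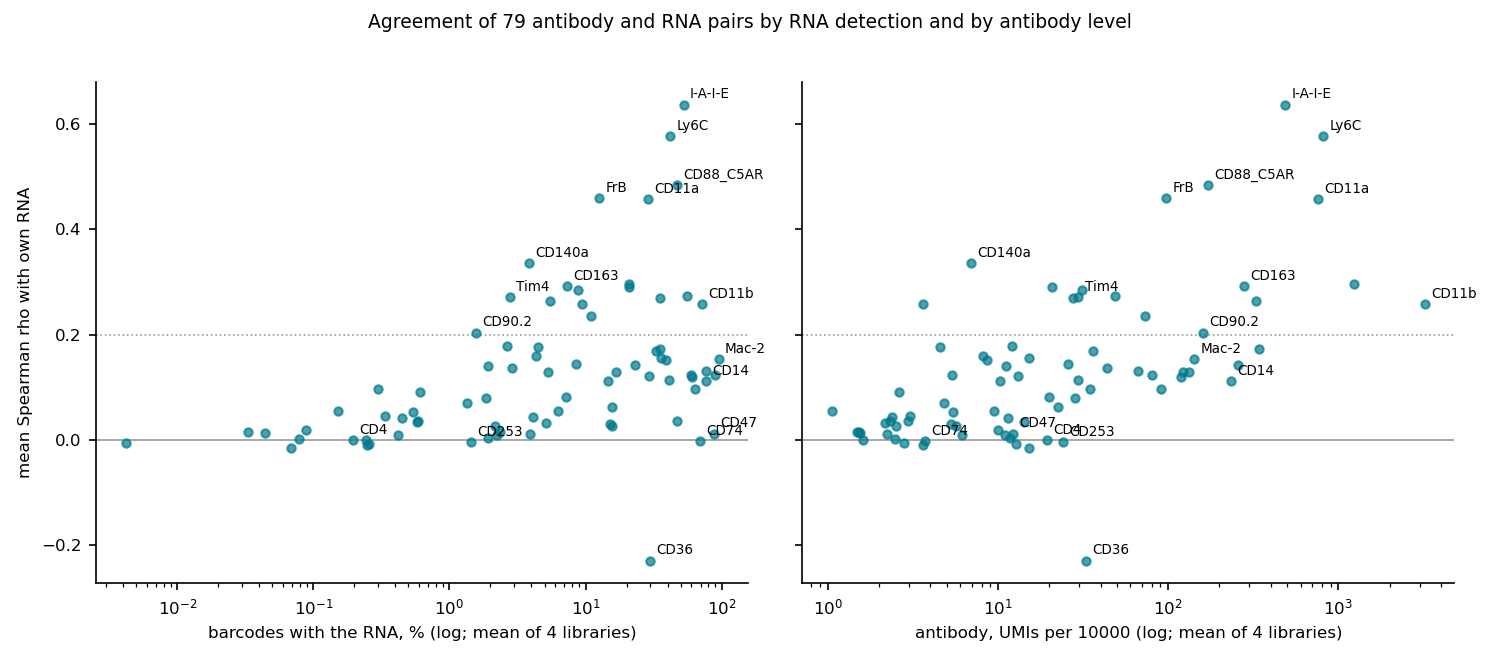
Mean rho of each pair (vertical axis) against the percentage of barcodes with its RNA (log axis), 79 pairs, 1 point each. No pair under 1%, where ties at 0 limit rho, reaches 0.2, and above 50% the pairs spread between CD74 at -0.00277 and I-A-I-E at 0.636.

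The 19 antibodies whose RNA was nearly absent were still counted. Together they made up 83.8, 87.5, 172 and 263 of every 10000 antibody UMIs from baseline to resolution, while their RNA summed to 18.2, 13.8, 4.80 and 9.59 CPM. FceRIa alone gave 100 of the 172 at plateau, with 95.8% of its UMIs in 1% of the barcodes. The median of these antibodies was in 26.0%, 15.4%, 12.6% and 29.2% of barcodes, and the one found least widely in 4.67%, 3.80%, 3.57% and 5.99%. At resolution the most widely found was the CD4 antibody, in 81.6% of barcodes with 6 UMIs of Cd4 RNA in the whole library, and CD8a was in 80.5% of barcodes with 2 UMIs of Cd8a RNA. The panel held 0 isotype controls to set a background level.

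Of the 6 antibodies without a baseline reading, 1 reached 0.2, against 0.0% of 498 combinations with other panel genes. CD68, a lysosomal protein of macrophages, had a mean of 0.0673, and P2Ry12, a receptor for ADP, 0.0604. TLR4, CD90.1 and CD185_CXCR5 lay between 0.00109 and 0.0347.

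Whether antibody and RNA also moved together between stages was asked with their levels summed over each library: antibody UMIs per 10000 and RNA in CPM. With 1 library a stage these are ratios of libraries, with no replicate check. The median antibody shifted by a log2 ratio of 0.38 between peak and baseline, 0.03 between plateau and peak, 0.87 between resolution and plateau and 1.28 between resolution and baseline. The median gene shifted by -0.12, 0.30, 0.06 and 0.19. Log2 ratios of single pairs are therefore given relative to these medians.

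Antibody shares alone were at least 1.5-fold higher for 45.6% of antibodies and lower for 21.5% at peak against baseline. These percentages were 17.6% and 17.6% at plateau against peak, 60.0% and 17.6% at resolution against plateau, and 72.2% and 8.86% at resolution against baseline. Among all genes with at least 30 UMIs over both libraries, RNA was higher for 14.8%, 32.6%, 23.8% and 24.5% in these contrasts and lower for 23.3%, 10.2%, 19.0% and 10.7%.

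Pairs past 1.5-fold in the same direction were set against combinations of antibodies with the RNA of other antigens. Their share was larger at peak against baseline, plateau against peak and resolution against plateau. At resolution against baseline the shares were close (22.7% against 21.0%). Opposite pairs made up a smaller share than such combinations in each of the 4 contrasts. With 1 library a stage these differences have no test. At peak against baseline 20 of 76 pairs moved the same way (26.3%, against 20.8% of other combinations) and 10 opposite ways (13.2%, against 20.7%). At plateau against peak 14 of 83 moved the same way (16.9%, against 9.6%) and 5 opposite ways (6.02%, against 9.73%). At resolution against plateau the counts were 31 of 79 (39.2%, against 30.7%) and 11 (13.9%, against 21.1%). At resolution against baseline they were 17 of 75 (22.7%, against 21.0%) and 14 (18.7%, against 24.4%). Counted only where the call also held relative to the medians, same-direction pairs numbered 18 of 76, 14 of 83, 21 of 79 and 11 of 75 in these 4 contrasts, against 18.6%, 8.96%, 17.2% and 9.95% of other combinations. Opposite pairs numbered 8, 4, 6 and 5 by the same rule, against 18.3%, 8.89%, 14.5% and 11.5%.

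At peak against baseline, CD127 was 2.19 higher by antibody and 2.70 by RNA on the log2 scale, with 3.99 against 0.673 antibody UMIs per 10000 and 31.5 against 5.27 CPM. The RNA fold was 5.97, with a 95% Poisson interval of 4.64 to 7.80. CD103 and FceRIa, the receptor for IgE on basophils and mast cells, were also higher by both measures, but their RNA rested on 1 and 4 UMIs at baseline. CD36 was lower by both, at 15.1 against 82.6 antibody UMIs per 10000 and 39.4 against 154 CPM, although the 2 measures ran against each other between barcodes of every library. CD138, a matrix-binding proteoglycan, split: its antibody was at 1.97 per 10000 at peak, against 8.95 at baseline, and Sdc1 RNA at 68.8 against 2.59 CPM, 26.6-fold higher (18.7 to 39.1). The CD138 antibody was sparse, with 1194 UMIs in 13.9% of barcodes at peak, against 49.2% of barcodes at baseline. CX3CR1 split the other way, with 42.2 against 17.1 per 10000 for the antibody and 65.3 against 204 CPM for the RNA. On the log2 scale CD253, the death ligand TRAIL, split as CD138 did (-2.94 for the antibody and 1.55 for the RNA), and CD34, a sialomucin of progenitor and vessel cells, as CX3CR1 did (1.36 and -1.09). Tnfsf10 RNA, which encodes TRAIL, rested on 226 UMIs at peak and 17 at baseline.

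At plateau against peak, CD61 was at 995 against 182 antibody UMIs per 10000 and 51.1 against 11.7 CPM, and CD71 was at 187 against 66.8 per 10000 and 86.0 against 26.2 CPM. CD11a and CD90.2 were lower by both, by log2 ratios of -1.30 and -1.39 for the antibody and -1.45 and -1.58 for the RNA. FceRIa was counted as opposite, with 100 against 17.04 antibody UMIs per 10000 and 0.169 against 3.19 CPM of Fcer1a RNA. Without the 1% of barcodes richest in antibody UMIs its antibody was lower at plateau, at -1.66 on the log2 scale, so a few barcodes set its direction.

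At resolution against plateau, CD61 and CD71 were lower again, at 69.3 against 995 and 28.5 against 187 antibody UMIs per 10000, with 4.13 against 51.1 CPM of Itgb3 RNA and 18.7 against 86.0 CPM of Tfrc RNA. CD163 was higher, at 522 against 147 per 10000 and 72.7 against 3.85 CPM, an RNA fold of 18.9 (15.6 to 23.0). Markers of macrophages summed to 2836 against 873 CPM in the same libraries, and their part was not tested. JAML, a junctional adhesion molecule of leukocytes, and CD11c were higher by both, by 1.43 and 1.11 for the antibody and 1.94 and 2.54 for the RNA on the log2 scale. The widest gap between the measures among the same-direction pairs of this contrast was that of CD301b, named after its values were seen, with 321 against 1.59 CPM of Mgl2 RNA and 36.8 against 10.7 antibody UMIs per 10000. CD138 split again, with 7.95 against 2.23 per 10000 and 4.61 against 160 CPM. CD193, an eotaxin receptor encoded by Ccr3, and CD106, a ligand of leukocyte integrins, had higher antibody and lower RNA as well, by 1.29 and -4.28 and by 0.69 and -2.22 on the log2 scale. Ccr3 RNA rested on 22 UMIs at resolution and 449 at plateau. Antibodies whose RNA was nearly absent were also higher, such as CD4 (46.1 against 4.24 per 10000) and CD8a (42.8 against 6.14). By share, not set relative to the median, FceRIa alone of the 19 such antibodies was lower. Without the 1% of barcodes richest in antibody UMIs FceRIa was higher, at 1.67 on the log2 scale. Among all antibodies, 60.0% were at least 1.5-fold higher in this contrast. Whether the splits are particular to these antigens was not tested. CD64 was lower by both (-1.89 and -3.09).

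At resolution against baseline, the Ly6C antibody was at 91.0 against 2679 per 10000, a log2 ratio of -6.16, and its RNA at 187 against 540 CPM, a log2 ratio of -1.72. Antibody shares are parts of a whole, so a share this large at baseline lowers those of all other antibodies there. CD317 and CD11a were lower by both, with antibody log2 ratios of -2.13 and -2.19 and RNA log2 ratios of -1.07 and -1.02, and CD127 was higher by both (1.90 and 1.95). CD36 ran opposite ways in this contrast, with 22.6 against 82.6 antibody UMIs per 10000 and 339 against 154 CPM of Cd36 RNA. CD8a and Ly6G were also counted as opposite, but their RNA rested on 2 against 6 UMIs and on 0 against 39 UMIs. The neutrophil markers were at 1111 against 25720 CPM, and their part in the Ly6G ratio was not tested. In all 4 contrasts, fewer cells of a type and less RNA or protein per cell cannot be told apart.

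**Figure D5:**
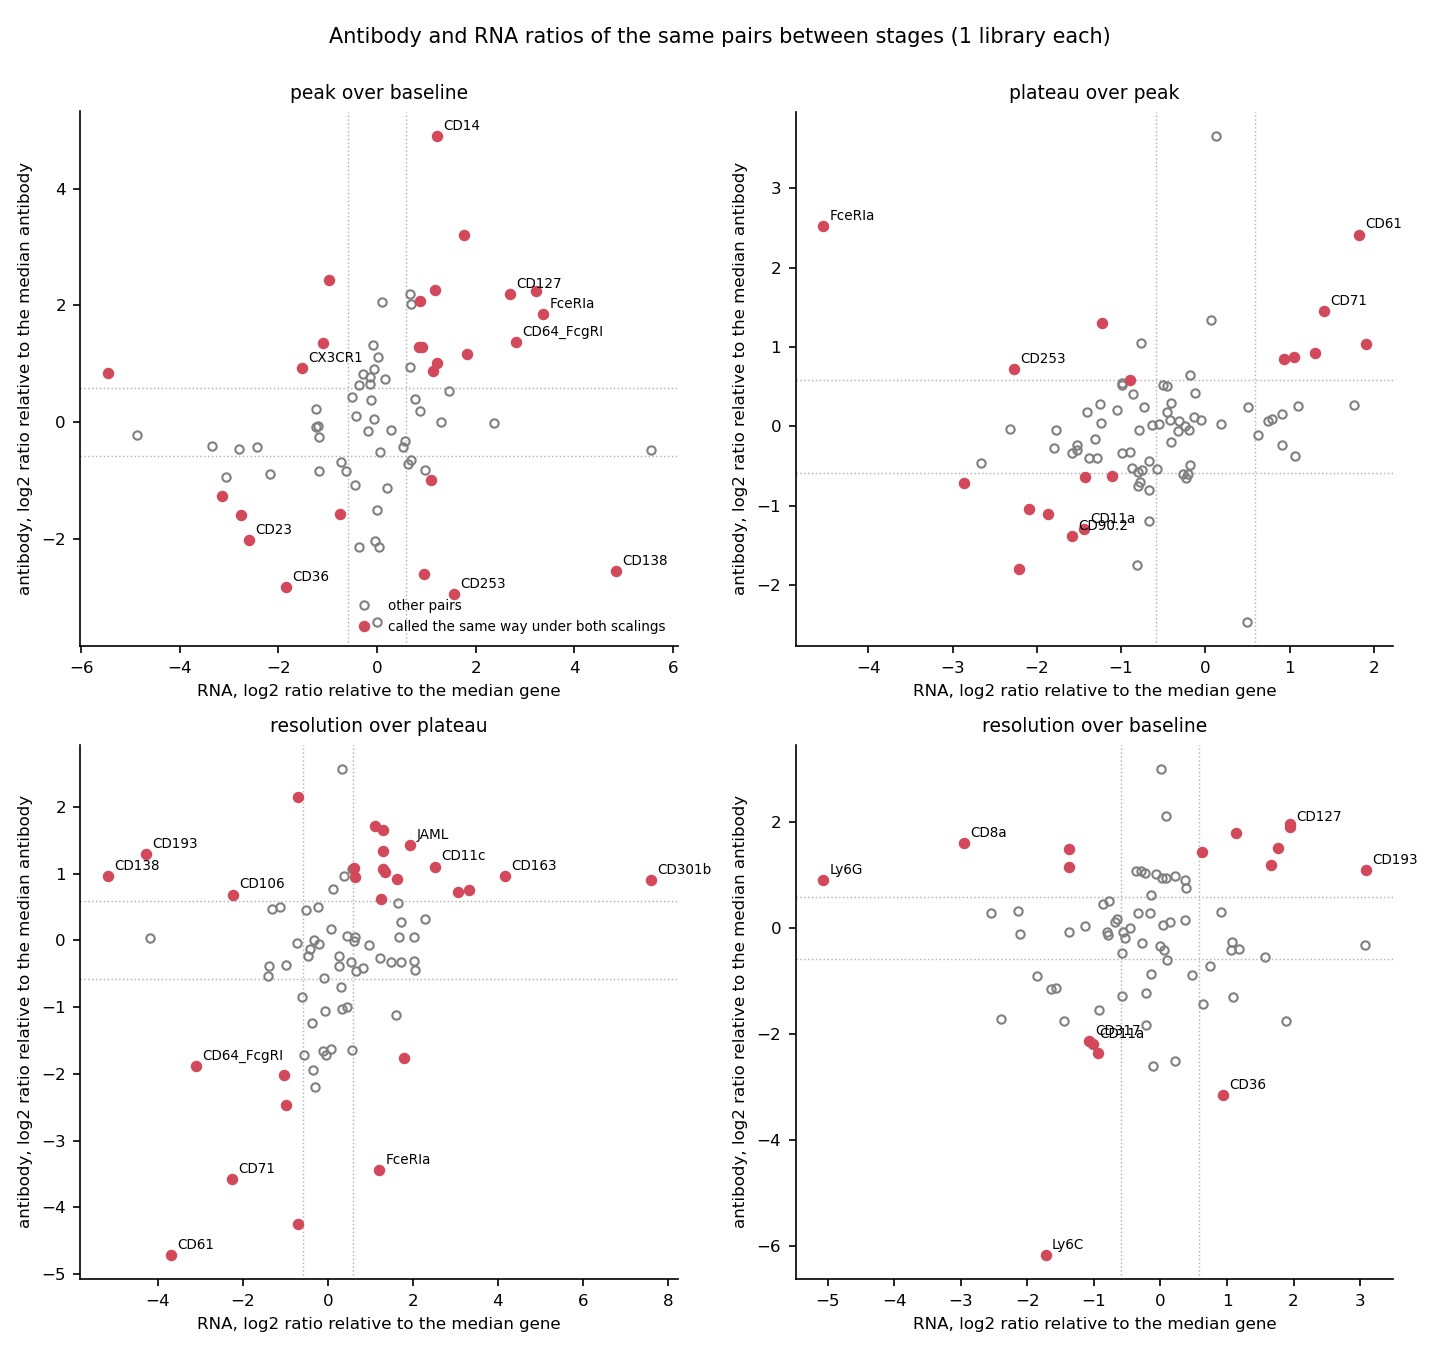
Log2 ratio of the antibody (vertical axis) against that of its RNA (horizontal axis), each relative to its median, for 4 contrasts of 1 library each; dotted lines mark 1.5-fold and filled points are pairs called the same way with and without the shift to the median. CD61 lies at the upper right for plateau over peak (2.41 and 1.83) and at the lower left for resolution over plateau (-4.71 and -3.69).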

How the data were processed

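The deposited matrices hold raw UMI counts per cell barcode for genes and antibodies, not normalized, per the file headers. Per the submitters' processing notes Cell Ranger 6.1.2, mm10 and Seurat 4.4.0 were used, with no step stated for Seurat. Libraries were made with 10x 3′ v3.1 chemistry, per the labels' protocols.

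Each antibody was paired with the gene of the antigen it names, and 3 antibodies with summed genes (I-A-I-E, Ly6C and CD3). Pairing was done by hand from the names. Barcodes under 300 genes or over 10% mitochondrial UMIs were removed, and no doublet caller was run. Those that carried 10 or more UMIs of CD45.1 and also of CD45.2 numbered 46, 127, 46 and 22 from baseline to resolution, and leaving them out was an alternative. A pair has no rho where a library holds 0 UMIs of its RNA, as in 7 pairs, and its mean then covers the other libraries. Barcodes tied at an antibody's median all counted in the lower 50%. Ratios with baseline used the 79 antibodies read there as the antibody total, a library RNA of 0 was set to 3 UMIs, and no ratio was formed with 3 UMIs or fewer in both libraries. Gene positions are those of RefSeq on GRCm38.p6, the same assembly as mm10.

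The members, lists and comparisons were chosen with earlier results of these data known. Pairs named with values were the 12 highest and 6 lowest by mean rho among pairs detected in at least 10% of barcodes, the antigens of the sort, the antibodies not read at baseline and, for each stage contrast, the 3 largest same-direction pairs each way and up to 4 opposite ones. For the top pairs the 3 best other genes were named. The values of 2 pairs that this rule names are not reported here. Other named pairs were chosen after their values were seen. The correlation code was tested on simulated data. Python 3.11.15, numpy 2.4.6, scipy 1.17.1, pandas 2.3.3, matplotlib 3.10.9, R 4.3.3 and edgeR 4.0.16 (TMM factors, an alternative) were used.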

Additional observations from a re-analysis of the deposited data

How the results depend on the processing

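The counts of pairs at rho 0.2 depended most on depth. With raw UMIs in place of shares, 31 pairs reached it by their mean, 38 at baseline, 28 at peak and 29 at plateau, while 5.96% of other combinations did, and the own gene came first for 16 antibodies. With each barcode thinned to 2000 gene and 100 antibody UMIs, which left out 93, 491, 505 and 841 barcodes from baseline to resolution, the counts were 10 by the mean, 13, 8 and 11 in the same libraries, with 0.355% of other combinations, and again 16 own genes first. The single antibody without a baseline reading that reached 0.2 became 0 after thinning, with a centred log-ratio of the antibodies, partial rho, Pearson's r, no filter, the stricter filter, and without the barcodes richest in gene UMIs, with both CD45 antibodies or, chosen after seeing the data, richest in antibody UMIs. Leaving out 1 library at a time gave 16 to 20 pairs by the mean, 0 to 1 without a baseline reading and 21 to 27 own genes first. With a 2-fold limit the same-direction pairs numbered 13, 8, 19 and 9 in the order of the contrasts, and with at least 30 UMIs in both libraries 11 at resolution against baseline. The other 105 recomputed counts stayed within 1.5 times of those reported, and neither the 12 leading well-detected pairs nor CD36 changed sign: rho of CD36 ran between -0.28 and -0.133, of I-A-I-E between 0.598 and 0.674, and of Ly6C between 0.473 and 0.618. Other named pairs moved by over 1.5 times. Thinning lowered mean rho of CD11c to 0.166, CD317 to 0.161, CX3CR1 to 0.111, CD61 to 0.131, CD71 to 0.135, CD11b to 0.148 and CD64 to 0.0275, and brought CD36 nearer 0, at -0.151 (-0.133 without baseline). It raised FceRIa, a pair with RNA in under 1% of barcodes, from 0.0961 to 0.205, past the threshold of 0.2. The centred log-ratio gave 0.109 for CD127 and 0.103 for CD64, raw UMIs 0.508 for CD11b, and barcodes with a Csf1r UMI 0.114 for CD90.2 and 0.0939 for CD106. Scaling to isotype controls was not run, because the panel read 0 of them. No paired analysis was possible because each stage had 1 library and the result comes from no test. Differences between mice cannot be told from differences between stages, and antibody levels of a few UMIs per barcode limit what rho can show.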
